A study of Homo sapiens with 45 samples.

Results

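The mitotic genes are a group of 47 genes whose products carry a cell through mitosis, from the cyclins and kinases of mitotic entry to the proteins that part the daughter cells. They were taken by symbol from a list that was chosen with earlier results of these data known. All 47 were found among the 57353 symbols of the count table. All 47 also passed the filter on low counts in each of the 3 cell lines. The study measured polyadenylated RNA in 45 libraries of 3 breast cancer lines that express the estrogen receptor gene. MM134 (MDA MB 134VI) and MM330 (MDA MB 330) are lines of invasive lobular carcinoma, and HCC1428 is a line of invasive ductal carcinoma. Each line had 5 groups with 3 libraries each. The groups siER_E2, siFOXA1_E2 and siMDC1_E2 received siRNA against the estrogen receptor ER (gene ESR1), the pioneer factor FOXA1 or the DNA damage scaffold MDC1, and then estradiol (E2) at 100 pM. The group siNT_E2 received a non-targeting siRNA and E2, and the group siNT received the same siRNA and the vehicle, 0.01% ethanol. All cells of all groups had first been kept for 3 days in medium with charcoal-stripped serum, which holds little hormone. E2 or vehicle was added 24 h after siRNA transfection, and the cells were collected 24 h after that. The HCC1428 siNT_E2 libraries carry the replicate numbers 2, 3 and 4, and those of all other groups 1, 2 and 3. None of the groups analysed here had a knockdown without E2.

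Mitosis begins when cyclin B with the kinase CDK1 phosphorylates the proteins of the dividing cell. Kinetochores then bind spindle microtubules, and the spindle checkpoint holds the anaphase-promoting complex (APC/C) inactive until every chromosome is attached. Securin and cyclin B are then destroyed, the chromosomes part and the cell divides. Most of these genes are transcribed late in the cell cycle. In resting cells the DREAM complex holds them silent, and in dividing cells B-MYB (MYBL2) with the MuvB core, and then FOXM1, activate them. Estrogen drives receptor-positive breast cancer cells into the cell cycle, and the transcripts of these genes serve as markers of proliferation. In bulk RNA, fewer cells in mitosis and less RNA per cell cannot be told apart, and this holds for every level below.

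The members fall into 6 steps by the role of their product: entry (7 genes), kinetochore and centromere (12), checkpoint (5), spindle (10), chromosome structure (4), and exit with cytokinesis (9). Levels are given in CPM, a gene's count scaled to the total of its library, with totals adjusted by TMM over all 45 libraries. A change is a log2 fold change with its standard error (SE). It was called when its p-value, from edgeR's quasi-likelihood test with Benjamini-Hochberg adjustment over all genes of the comparison, was below 0.05. After each count of members, the share of all tested genes called in the same direction is given as the background.

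Promoter stretches of 8 members are shown because the late cell cycle genes are known for a promoter element, the cell cycle homology region (CHR), that MuvB complexes bind, often near CCAAT boxes bound by NF-Y. Each stretch runs from 130 bases before to 20 bases after the start in RefSeq's annotation of GRCh38.p14, 5′ to 3′ on the gene's own strand. Capitals mark the CHR core, with the letters TTTGAA or TTCGAA, and the CCAAT box, each on either strand. The first pair are entry genes, CCNB2 (cyclin B2; chr15:59105016-59105165, plus strand) and PLK1 (polo-like kinase 1; chr16:23678759-23678908, plus strand). NDC80 (chr18:2571427-2571576, plus strand) encodes a kinetochore subunit that holds microtubules. BUB1 (chr2:110678044-110678193, minus strand) and BUB1B (chr15:40160939-40161088, plus strand) encode checkpoint proteins. MKI67 (chr10:128126404-128126553, minus strand) encodes the proliferation antigen Ki-67, and CDC20 (chr1:43358851-43359000, plus strand) the mitotic activator of APC/C. The stretch of MYBL2 (chr20:43666984-43667133, plus strand), the activator of the late genes, holds neither element and is shown for contrast. It is not alone in this: the stretches of CENPE, KIF2C and TACC3, not shown, hold neither element, and that of CCNB1 holds CCAAT boxes only.
CCNB2: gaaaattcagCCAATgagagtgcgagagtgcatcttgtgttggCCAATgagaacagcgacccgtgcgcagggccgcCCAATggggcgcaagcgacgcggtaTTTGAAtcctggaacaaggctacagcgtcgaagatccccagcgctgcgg
PLK1: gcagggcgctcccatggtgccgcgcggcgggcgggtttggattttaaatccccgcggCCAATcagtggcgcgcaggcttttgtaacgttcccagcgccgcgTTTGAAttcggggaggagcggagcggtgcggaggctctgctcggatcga
NDC80: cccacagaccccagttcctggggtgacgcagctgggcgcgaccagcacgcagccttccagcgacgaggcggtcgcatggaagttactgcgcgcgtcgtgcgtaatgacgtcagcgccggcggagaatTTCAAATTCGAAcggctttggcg
BUB1: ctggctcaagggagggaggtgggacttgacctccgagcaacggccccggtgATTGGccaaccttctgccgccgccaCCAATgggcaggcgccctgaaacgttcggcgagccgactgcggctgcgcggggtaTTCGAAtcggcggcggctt
BUB1B: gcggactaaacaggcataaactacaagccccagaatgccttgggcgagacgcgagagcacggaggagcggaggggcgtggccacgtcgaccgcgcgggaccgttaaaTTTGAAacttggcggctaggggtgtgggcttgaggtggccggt
MKI67: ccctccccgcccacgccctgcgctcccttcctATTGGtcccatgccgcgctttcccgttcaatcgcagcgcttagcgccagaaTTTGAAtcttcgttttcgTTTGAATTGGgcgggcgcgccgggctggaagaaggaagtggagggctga
CDC20: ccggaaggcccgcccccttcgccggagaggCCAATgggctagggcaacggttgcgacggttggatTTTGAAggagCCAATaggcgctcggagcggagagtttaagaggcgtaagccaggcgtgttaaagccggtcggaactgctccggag
MYBL2: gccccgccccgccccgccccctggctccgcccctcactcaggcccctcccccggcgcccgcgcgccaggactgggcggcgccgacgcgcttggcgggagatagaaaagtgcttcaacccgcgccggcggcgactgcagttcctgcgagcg

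In the full windows of 250 bases before to 50 after the start, 41 of the 47 members had a promoter in the RefSeq table. AURKA, UBE2C, TTK, FOXM1, TPX2 and BUB3 had none there. Either CHR core was present on either strand in 30 of 41 members (73.2%), against 14.3% of all 17453 promoters of the same length. The core TTTGAA alone was in 28 of 41 members (68.3%), against 12.99% of all 17453 promoters of the same length, and TTCGAA in 3 of 41 members (7.32%), against 1.58% of all 17453 promoters of the same length. The CCAAT box was found in 31 of 41 members (75.6%), against 36.3% of all 17453 promoters of the same length. Both elements stood together in 24 of 41 members (58.5%), against 5.84% of all 17453 promoters of the same length. An E2F site with the letters TTTCGCGC or TTTGGCGC was in 2 of 41 members (4.88%), against 1.44% of all 17453 promoters of the same length, and the forkhead motif TGTTTAC was in 1 of 41 members (2.44%), against 2.88% of all 17453 promoters of the same length. No member window held a full estrogen response element (GGTCA and TGACC parted by any 3 bases), which was in 0.0688% of all windows. These are matches of letters and were not tested for binding.

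Library totals ranged from 21.04 to 36.74 M counts. The luminal markers KRT8, KRT18, KRT19, EPCAM, GATA3, ESR1 and FOXA1 were present in every group, and their summed level was 6346 to 19141 CPM in single libraries. Summed immune markers reached at most 0.444 CPM, endothelial markers 11.1 CPM and basal markers 17.7 CPM. The fibroblast list of 5 genes summed to 20.6 to 117 CPM, most of it COL1A1, and COL3A1 was at 0 in all groups. In 11 libraries, processed pseudogenes took 0.337 to 0.494% of the counts, against 0.123 to 0.158% in the other 34. HCC1428 siER_E2 and siNT had only 1 library each with the lower share. The knockdowns were checked on their targets. With siER, ESR1 fell by 3.12 on the log2 scale in MM134 (60.2 against 533 CPM), by 3.68 in MM330 (22.2 against 284 CPM) and by 1.00 in HCC1428 (217 against 426 CPM). With siFOXA1, FOXA1 fell by 1.97, 1.86 and 1.64 on the log2 scale in MM134, MM330 and HCC1428. With siMDC1, MDC1 fell by 2.13, 2.30 and 1.94 in the same lines. ESR1 was also called lower with the other siRNAs in each line. In MM134 it averaged 108 CPM with siFOXA1 (-2.29) and 120.5 CPM with siMDC1 (-2.16), against 533 CPM in siNT_E2. In MM330 it averaged 208 CPM with siFOXA1 (-0.45) and 147 CPM with siMDC1 (-0.96), against 284 CPM in siNT_E2. In HCC1428 it averaged 392 CPM with siFOXA1 (-0.16) and 394 CPM with siMDC1 (-0.12), against 426 CPM in siNT_E2. MDC1 was called lower with siER and siFOXA1 as well, by -0.63 and -0.35 in MM134, -0.98 and -0.71 in MM330, and -1.17 and -0.90 in HCC1428.

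The summed level of the 47 members gives the size of the program in each library. In HCC1428 it was 4625, 4641 and 4811 CPM in siNT_E2, against 968, 966 and 943 CPM in siNT. In MM330 it was 3392, 3989 and 3689 CPM in siNT_E2, against 2661, 2551 and 2686 CPM in siNT. In MM134 it was 6869, 6739 and 6779.6 CPM in siNT_E2, against 6342, 6011 and 6169 CPM in siNT. On this TMM-adjusted scale, E2 libraries stood above vehicle libraries with no overlap in each line, by a wide gap in HCC1428 and a narrow one in MM134. As a share of unadjusted counts, the MM134 groups overlapped, at 0.702 to 0.710% in siNT_E2 and 0.681 to 0.711% in siNT. The MM134 gap was thus present only after scaling. In MM330 and HCC1428 these shares did not overlap. With siER the sum in CPM averaged 5071 ± 195 in MM134, 2969 ± 144 in MM330 and 1684 ± 104 in HCC1428 (SD, n = 3). With siFOXA1 it averaged 4651 ± 132, 1779 ± 403 and 1499.6 ± 12.7 CPM in the same lines. The wide SD of MM330 siFOXA1_E2 came from its 3 libraries at 2239.6, 1488 and 1609 CPM, of which the first stood apart. With siMDC1 the averages were 5930.1 ± 65.1, 4184 ± 50.4 and 3099 ± 97.7 CPM. The siFOXA1_E2 group was the lowest of the E2-treated groups in every line, and siMDC1_E2 the highest of the knockdown groups.

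**Figure D1:**
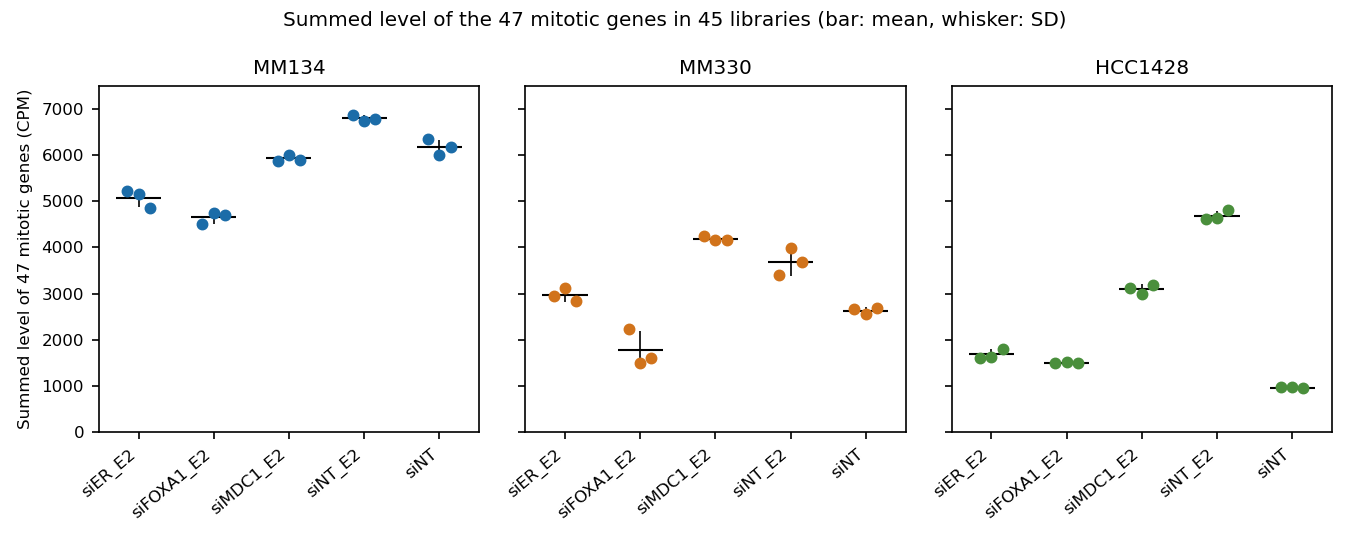
Summed level of the 47 mitotic genes in CPM (linear axis from 0) for each library, by group, in MM134, MM330 and HCC1428. Points are libraries, bars are means and whiskers are SD (n = 3). The HCC1428 siNT_E2 libraries sit at 4625 to 4811 CPM, against 943 to 968 CPM in siNT, and siMDC1_E2 stands above siNT_E2 in MM330 only.

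The first comparison asked how E2 changed these genes in cells with the non-targeting siRNA. In HCC1428 all 47 members rose, with a median log2 fold change of 2.63 and a range of 0.71 to 3.57. The background was 29.1% of genes called higher, and the median over all genes tested was -0.03. In MM330, 35 members rose with a median of 0.50 over all 47, against a background of 13.7% higher and a median of -0.00 for all genes. In MM134, 25 rose and 5 fell, and the median was 0.13. The backgrounds there were 27.2% higher and 27.2% lower, so the members' share of falls was below the background and their share of rises above it. The siNT_E2 and siNT libraries did not overlap for 37 members in MM134, 37 in MM330 and 47 in HCC1428, against 60.3, 39.8 and 59.3% of all genes tested in these lines. Called as higher in all 3 lines were 23 members, against 8.36% of the genes tested in all 3. Among the 23 were FOXM1, MYBL2, TOP2A, AURKB, MAD2L1, NUF2, SPC25, SKA1, SKA3, NCAPG, NCAPH, KIF11 and UBE2C. In HCC1428 the share of counts from mitochondrial genes moved with the same groups, at 12.6 ± 1.49% in siNT_E2 and 17.05 ± 1.45% in siNT (SD, n = 3). Its part in the result was not tested. With only the libraries of the lower pseudogene share, 32 members were higher in MM330 (background 9.49% higher), and 27 were higher and 5 lower in MM134 (27.8% and 27.8%). In HCC1428 siNT kept 1 library there, assumed to vary like those of the other groups, and 47 members were higher (23.6%).

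Entry into mitosis rests on cyclin A2 (CCNA2), the B cyclins (CCNB1, CCNB2), CDK1, PLK1 and the factors FOXM1 and MYBL2. FOXM1 (ENSG00000111206.12, chr12:2857681-2877155), a forkhead factor that activates genes of G2 and mitosis, had 350.3, 355 and 352 CPM in siNT_E2 libraries of HCC1428, against 52.8, 52.5 and 49.9 CPM in siNT libraries. It had 257, 284 and 266 CPM in siNT_E2 libraries of MM330, against 189, 175 and 184 CPM in siNT libraries. It had 304, 291 and 296 CPM in siNT_E2 libraries of MM134, against 228, 218 and 221 CPM in siNT libraries. The groups did not overlap in any line, and the HCC1428 siNT libraries were the lowest of the 3 lines. The log2 changes were 0.40 ± 0.03 (adjusted p = 5.2e-11) in MM134, 0.58 ± 0.14 (adjusted p = 0.0048) in MM330 and 2.78 ± 0.05 (adjusted p = 4.1e-18) in HCC1428. MYBL2 (ENSG00000101057.15, chr20:43667019-43716496) encodes B-MYB. MYBL2 had 576, 561 and 535 CPM in siNT_E2 libraries of HCC1428, against 72.3, 75.5 and 70.2 CPM in siNT libraries, and its siNT_E2 level there was the highest of all 15 groups. It had 84.6, 87.6 and 81.5 CPM in siNT_E2 libraries of MM330, against 32.7, 31.3 and 35.1 CPM in siNT libraries, and 289, 289 and 290.2 CPM in siNT_E2 libraries of MM134, against 166, 167 and 159.6 CPM in siNT libraries. MYBL2 was the member with the highest log2 change in both lobular lines, 0.81 ± 0.03 in MM134 and 1.38 ± 0.20 in MM330, beside 2.95 ± 0.05 in HCC1428.

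Cyclin B1 gave another picture. CCNB1 (ENSG00000134057.14, chr5:69167010-69178245), the cyclin that activates CDK1 at entry, had 58.5, 55.4 and 63.3 CPM in siNT_E2 libraries of HCC1428, against 15.01, 16.9 and 15.6 CPM in siNT libraries. In the lobular lines the level hardly moved: CCNB1 had 45.3, 56.4 and 50.96 CPM in siNT_E2 libraries of MM330, against 51.00, 46.1 and 51.8 CPM in siNT libraries, and 154, 155 and 149 CPM in siNT_E2 libraries of MM134, against 149, 139.9 and 140.5 CPM in siNT libraries. The MM330 libraries overlapped, and the log2 change there was 0.05 ± 0.09 (adjusted p = 0.73), not called. In MM134 it was 0.08 ± 0.04 (adjusted p = 0.058), and in HCC1428 1.92 ± 0.07 (adjusted p = 5.4e-14). CDK1, the kinase itself, had the second lowest change of HCC1428 (0.84 ± 0.05) and was called higher in MM330 and MM134 as well (0.73 and 0.35). CCNA2 changed by 0.05 in MM134, 0.49 in MM330 and 2.68 in HCC1428, CCNB2 by -0.07, 0.36 and 2.601, and PLK1 by 0.01, 0.13 and 2.27. Of the 7 entry genes, 3 were called higher in MM134, 4 in MM330 and 7 in HCC1428, where 27.2, 13.7 and 29.1% of all genes were.

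The kinetochore genes had the highest step median in MM330 (0.76) and in MM134 (0.25), and 2.70 in HCC1428. NDC80 (ENSG00000080986.12, chr18:2571511-2616635), which names the complex that grips microtubules, had 20.7, 17.8 and 21.4 CPM in siNT_E2 libraries of HCC1428, against 1.87, 2.91 and 2.15 CPM in siNT libraries. It had 17.8, 24.3 and 21.1 CPM in siNT_E2 libraries of MM330, against 11.9, 11.6 and 16.04 CPM in siNT libraries, and 19.3, 18.1 and 20.5 CPM in siNT_E2 libraries of MM134, against 20.9, 19.00 and 19.4 CPM in siNT libraries. The libraries lay apart in HCC1428 and MM330 and overlapped in MM134. The changes were 3.13 ± 0.17 (adjusted p = 7.9e-12) in HCC1428, 0.70 ± 0.18 (adjusted p = 0.0081) in MM330 and -0.05 ± 0.08 (adjusted p = 0.63), not called, in MM134. Its partners in the complex rose in all 3 lines, SPC25 by 0.67 ± 0.07, 0.92 ± 0.14 and 3.11 ± 0.08 and NUF2 by 0.24 ± 0.06, 0.55 ± 0.08 and 2.50 ± 0.10 in MM134, MM330 and HCC1428. SKA1, of the SKA complex that follows microtubule ends, had the largest change of all members in HCC1428, 3.57 ± 0.11 or 11.8-fold, and rose by 0.94 ± 0.16 in MM330. Its partner SKA3 rose by 0.38, 0.88 and 3.02 in MM134, MM330 and HCC1428. AURKB and INCENP belong to the chromosomal passenger complex, which corrects faulty attachments. AURKB rose by 0.58 ± 0.05, 0.92 ± 0.10 and 3.18 ± 0.09, and INCENP by 0.18 ± 0.03, 0.48 ± 0.09 and 1.61 ± 0.04, the third lowest change of HCC1428. CENPE, a kinesin motor of the kinetochore, and CENPF, a large coat protein, fell in MM134 (-0.22 ± 0.07 and -0.10 ± 0.04) and rose in HCC1428 (2.01 and 1.78). CENPA, the histone of the centromere, changed by -0.01, 0.36 and 2.55. CENPN, which reads it, changed by 0.41, 0.92 and 2.27, and SGO1, which guards cohesin, by 0.26, 0.82 and 2.86.

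In the checkpoint, BUB1B (ENSG00000156970.12, chr15:40161023-40221136), the BubR1 subunit that binds and inhibits APC/C, had 40.1, 41.01 and 40.5 CPM in siNT_E2 libraries of HCC1428, against 5.27, 6.002 and 6.06 CPM in siNT libraries. It had 33.03, 44.7 and 35.4 CPM in siNT_E2 libraries of MM330, against 27.3, 26.8 and 27.2 CPM in siNT libraries, and 105, 101 and 96.5 CPM in siNT_E2 libraries of MM134, against 87.5, 84.1 and 84.4 CPM in siNT libraries. No line showed an overlap. The changes were 0.23 ± 0.04 (adjusted p = 1.2e-05) in MM134, 0.49 ± 0.10 (adjusted p = 0.0016) in MM330 and 2.83 ± 0.07 (adjusted p = 5.5e-17) in HCC1428. BUB3 (ENSG00000154473.17, chr10:123154277-123170467), its WD-repeat partner, moved least of all members in HCC1428 and had the narrowest span over the 15 groups. It had 112, 107 and 123 CPM in siNT_E2 libraries of HCC1428, against 73.2, 68.2 and 70.7 CPM in siNT libraries. In the other lines the libraries overlapped: BUB3 had 96.1, 106 and 99.5 CPM in siNT_E2 libraries of MM330, against 97.99, 91.5 and 98.5 CPM in siNT libraries, and 198, 187 and 188 CPM in siNT_E2 libraries of MM134, against 197, 199 and 189 CPM in siNT libraries. The log2 change was 0.71 ± 0.04 (adjusted p = 1.0e-10) in HCC1428, 0.09 ± 0.05 (adjusted p = 0.29) in MM330 and -0.04 ± 0.03 (adjusted p = 0.29) in MM134. BUB1, the kinase that recruits the others, fell in MM134 (-0.25 ± 0.04) and rose in HCC1428 (2.79 ± 0.07); its MM330 value was 0.37 ± 0.12. MAD2L1, the MAD2 protein of the inhibitory complex, rose by 0.43 ± 0.05, 0.66 ± 0.17 and 2.63 ± 0.10 in MM134, MM330 and HCC1428. TTK, the MPS1 kinase at the head of the checkpoint, changed by -0.00, 0.55 and 2.63.

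Among spindle genes, TPX2 (ENSG00000088325.15, chr20:31739271-31801805), which activates Aurora A on microtubules, had 139, 137 and 143 CPM in siNT_E2 libraries of HCC1428, against 43.1, 42.3 and 42.8 CPM in siNT libraries. It had 102, 118 and 106 CPM in siNT_E2 libraries of MM330, against 83.5, 77.7 and 81.6 CPM in siNT libraries, and 282, 276 and 273 CPM in siNT_E2 libraries of MM134, against 269, 259.8 and 262 CPM in siNT libraries. E2 libraries were the higher ones in each line. The changes were 0.06 ± 0.03 (adjusted p = 0.11) in MM134, 0.44 ± 0.11 (adjusted p = 0.0077) in MM330 and 1.72 ± 0.04 (adjusted p = 6.8e-17) in HCC1428. AURKA, the Aurora A kinase, rose by 0.13 ± 0.05 in MM134 and 1.71 ± 0.05 in HCC1428, and its MM330 value was 0.27 ± 0.11. KIF11, the Eg5 motor that pushes the poles apart, rose by 0.14, 0.68 and 2.595 in MM134, MM330 and HCC1428. KIF2C, which shortens microtubules, rose by 0.09, 0.44 and 2.58, and KIF18B by 0.34, 0.66 and 2.87. TACC3, a stabiliser of spindle fibres, rose by 0.25, 0.64 and 2.82. HMMR, a spindle assembly factor, fell in MM134 (-0.35 ± 0.05) and rose in HCC1428 (2.35 ± 0.17), with 0.30 ± 0.09 in MM330. DLGAP5, a fibre stabiliser, changed by 0.00, 0.23 and 2.68. NEK2, a kinase that splits centrosomes, changed by -0.01, 0.34 and 3.12. NUSAP1, a microtubule binder, changed by 0.15, 0.61 and 2.52; its counts were low (at most 10.8 CPM in a group), and the annotation places it on the same strand as the protein-coding AC087721.2.

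The 4 chromosome structure genes had the highest step median in HCC1428 (2.87). TOP2A (ENSG00000131747.14, chr17:40388516-40417950), the topoisomerase that untangles sister chromatids, had 206, 211 and 241 CPM in siNT_E2 libraries of HCC1428, against 30.4, 27.4 and 27.7 CPM in siNT libraries. It had 293, 337 and 313 CPM in siNT_E2 libraries of MM330, against 223, 217 and 222 CPM in siNT libraries, and 833, 811 and 826 CPM in siNT_E2 libraries of MM134, against 776, 729 and 761 CPM in siNT libraries. The groups lay apart in every line, and the siNT level of MM134 was far above that of HCC1428. The changes were 0.11 ± 0.03 (adjusted p = 0.0043) in MM134, 0.53 ± 0.12 (adjusted p = 0.0039) in MM330 and 2.96 ± 0.07 (adjusted p = 1.3e-16) in HCC1428. MKI67 changed by 0.07 ± 0.05, 0.71 ± 0.14 and 2.78 ± 0.08 in MM134, MM330 and HCC1428. The condensin subunits NCAPG and NCAPH, which compact chromosomes, rose by 0.45 and 0.27 in MM134, 0.68 and 0.65 in MM330, and 3.05 and 2.65 in HCC1428.

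At mitotic exit, CDC20 (ENSG00000117399.13, chr1:43358955-43363203), which switches APC/C on, had 99.3, 100.1 and 102 CPM in siNT_E2 libraries of HCC1428, against 15.3, 13.8 and 13.6 CPM in siNT libraries. It had 53.1, 68.9 and 61.6 CPM in siNT_E2 libraries of MM330, against 56.2, 48.1 and 58.4 CPM in siNT libraries, and 134, 127 and 135 CPM in siNT_E2 libraries of MM134, against 122, 112 and 107 CPM in siNT libraries. The MM330 libraries overlapped, and those of the other lines did not. The changes were 0.20 ± 0.04 (adjusted p = 4.3e-04) in MM134, 0.19 ± 0.10 (adjusted p = 0.16) in MM330 and 2.84 ± 0.07 (adjusted p = 1.1e-16) in HCC1428. UBE2C, the ubiquitin-conjugating enzyme that works with APC/C, rose by 0.40, 0.39 and 3.03 in MM134, MM330 and HCC1428. ESPL1, the separase that cuts cohesin, rose by 0.21, 0.70 and 2.51, and ECT2, which activates RhoA at the cleavage furrow, by 0.10, 0.50 and 1.92. PTTG1, the securin that holds separase back, changed by 0.10, 0.26 and 2.52. KIF20A, a midzone kinesin, had the lowest value of both lobular lines, -0.41 ± 0.04 in MM134, called lower, and 0.04 ± 0.13 in MM330, not called, and 2.65 ± 0.07 in HCC1428. KIF23, of the centralspindlin complex, changed by 0.04, 0.44 and 2.35, and KIF14 by -0.04, 0.43 and 2.71. PRC1, which bundles midzone microtubules, changed by 0.47 ± 0.22, 0.83 ± 0.34 and 2.31 ± 0.33. Its level was at most 6.61 CPM in a group, and the annotation places it on the same strand as the protein-coding AC068831.7.

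**Figure D2:**
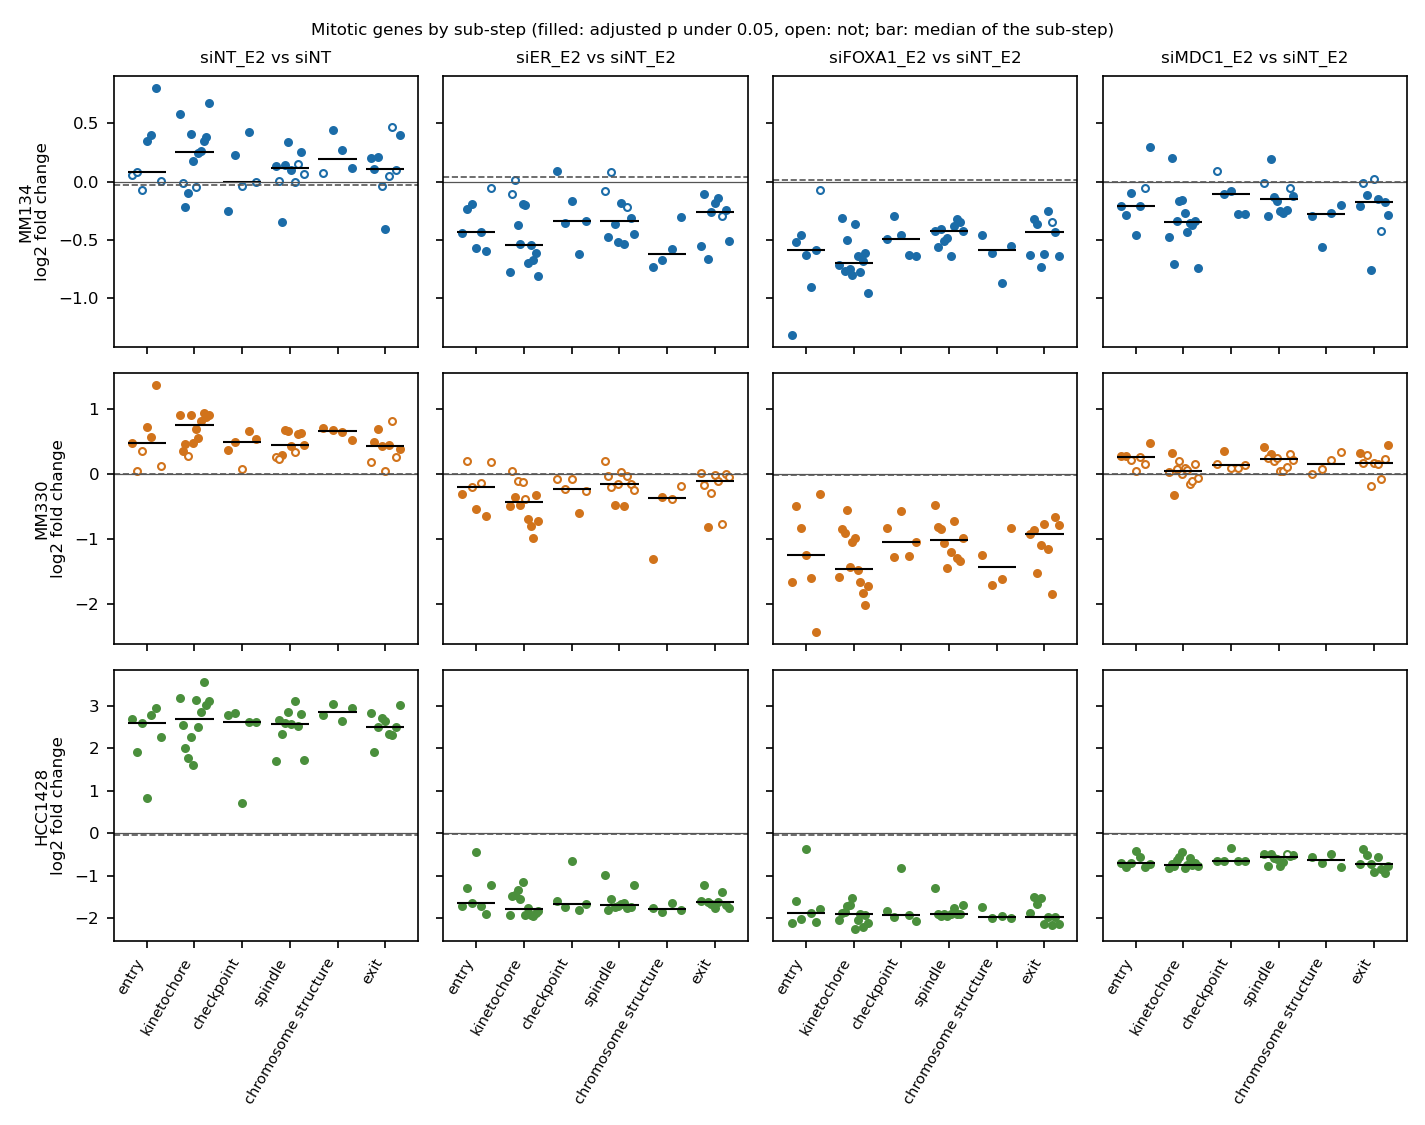
Log2 fold change of each mitotic gene by step, for E2 against vehicle (left column) and each knockdown with E2 against siNT_E2, with 1 row of panels per line. Each row has its own vertical scale. Filled points passed an adjusted p of 0.05, open points did not, short bars are step medians and the dashed line is the median of all genes tested. In HCC1428 all 47 points of the E2 panel lie above 0 and with siER and siFOXA1 all 47 lie under it, while the MM330 siMDC1 panel is mostly open points around a median of 0.16.

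Neighbouring lists were counted in the same way. Of 77 other mitotic genes, 48 rose and 10 fell in MM134, 61 rose and 1 fell in MM330, and 73 rose and 1 fell in HCC1428, with medians of 0.21, 0.55 and 2.33. Over all genes, 27.2, 13.7 and 29.1% were called higher in these lines and 27.2, 12.6 and 25.7% lower. The highest in HCC1428 were SPC24 (3.32), the partner of SPC25, and KIFC1 (3.18), a minus-end kinesin. The highest in MM330 were PKMYT1 (1.14), a kinase that restrains CDK1, and CDCA5 (1.09), the cohesin factor sororin, and in MM134 TRIP13 (0.76) and PKMYT1 (0.76). NUMA1, which gathers microtubules at spindle poles, was the lowest in each line and fell by 0.48, 0.18 and 0.51 on the log2 scale in MM134, MM330 and HCC1428. The second lowest were NDE1 (-0.32) in MM134 and NSL1 in MM330 (-0.10) and HCC1428 (0.06), neither NSL1 value called. All 27 DNA replication genes rose in each line, with medians of 0.51, 0.90 and 2.40 in MM134, MM330 and HCC1428. In the lobular lines these medians were above those of the mitotic genes, and in HCC1428 below. Of the 15 APC/C core subunits and partners, 7 rose and 1 fell in MM134, 2 and 2 in MM330, and 8 and 2 in HCC1428, with medians of 0.13, -0.03 and 0.26. In MM330 the APC/C counts were near those shares of all genes.

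The next comparisons set each knockdown with E2 against siNT_E2. All 3 use the same siNT_E2 libraries of a line, so their values are given side by side and not as evidence of each other. With siER, 47 of 47 members fell in HCC1428 (background 28.7% lower), 17 in MM330 (17.4%) and 39 in MM134 (27.9%), where 1 rose (29.3% higher). The medians were -0.37 in MM134, -0.23 in MM330 and -1.67 in HCC1428. Libraries did not overlap for 40, 25 and 47 members in the same lines, against 61.8, 43.6 and 57.7% of all genes. Called lower in all 3 lines were 16 members, against 10.3% of the genes tested in all 3. They were CCNA2, CDK1, MYBL2, AURKB, CENPN, NUF2, SPC25, SKA1, SKA3, SGO1, MAD2L1, KIF11, NEK2, NCAPG, MKI67 and ESPL1. In HCC1428 the largest falls were those of SKA1 (-1.93 ± 0.09), NDC80 (-1.92 ± 0.15) and SGO1 (-1.91 ± 0.11), and the smallest those of CDK1 (-0.44 ± 0.05), BUB3 (-0.65 ± 0.04) and AURKA (-0.98 ± 0.04). In MM134 they were largest for SPC25 (-0.81 ± 0.07), AURKB (-0.78 ± 0.05) and MKI67 (-0.74 ± 0.05). BUB1 rose there by 0.09 ± 0.04 (adjusted p = 0.043). HMMR (0.08), CENPE (0.01), PLK1 (-0.05), AURKA, CENPA, NUSAP1 and PRC1 were not called. In MM330 the largest falls were those of MKI67 (-1.31 ± 0.15), SKA1 (-0.98 ± 0.16) and ESPL1 (-0.82 ± 0.11). PLK1 (0.19 ± 0.10), CCNB1 (0.20 ± 0.08) and AURKA (0.21 ± 0.10) stood highest there and were not called. By step, the siER falls in MM330 were 3 of 7 entry, 8 of 12 kinetochore, 1 of 5 checkpoint, 2 of 10 spindle, 2 of 4 chromosome structure and 1 of 9 exit genes. The checkpoint, spindle and exit counts were near or below the 17.4% of all genes. Without a filter on low counts the MM330 siER count was 33, of which 30 fell and 3 rose. The share of all genes called in that fit is not given, so this count has no background. The mitochondrial share of the counts moved with the knockdowns in HCC1428, at 16.5 ± 0.640% with siER, 17.3 ± 0.468% with siFOXA1 and 15.4 ± 0.714% with siMDC1, against 12.6 ± 1.49% in siNT_E2 (SD, n = 3), and its part in the results was not tested.

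With siFOXA1, 45 members fell in MM134 (background 28.5% lower), 47 in MM330 (24.6%) and 47 in HCC1428 (29.5%). The medians were -0.56, -1.09 and -1.90, and the medians of all genes 0.01, -0.01 and -0.03. Libraries did not overlap for 45, 45 and 47 members, against 61.6, 51 and 60.3% of all genes. The 45 members called lower in MM134 were also called lower in both other lines, which held for 14.5% of the genes tested in all 3. The members not called in MM134 were PLK1 (-0.07 ± 0.05) and PRC1 (-0.35 ± 0.22). PLK1 also had the smallest fall in MM330 (-0.30 ± 0.11), where it was called, next to AURKA (-0.47 ± 0.11) and CCNB1 (-0.49 ± 0.09). In MM134 the largest fall was that of CCNA2 (-1.32 ± 0.05), ahead of SPC25 (-0.96 ± 0.07) and FOXM1 (-0.91 ± 0.03), and the smallest called ones were those of KIF23 (-0.25 ± 0.03) and BUB1B (-0.30 ± 0.04). MYBL2 (-2.43 ± 0.22), SKA3 (-2.02 ± 0.12) and PRC1 (-1.85 ± 0.37) fell most in MM330. In HCC1428, NDC80 (-2.25 ± 0.16), SKA1 (-2.19 ± 0.09) and PRC1 (-2.16 ± 0.33) fell most, and CDK1 (-0.37 ± 0.05), BUB3 (-0.80 ± 0.05) and AURKA (-1.29 ± 0.05) least. The kinetochore step had the lowest median in MM134 (-0.71) and MM330 (-1.46), and chromosome structure in HCC1428 (-1.98).

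With siMDC1 the lines went different ways. In HCC1428, 46 members fell (background 15.9% lower) with a median of -0.67, and NUSAP1 (-0.50 ± 0.19 (adjusted p = 0.056)) was not called. In MM134, 37 fell (25.0%) and 3 rose (25.4% higher), with a median of -0.21. In MM330, 9 rose (10.4% higher) and 1 fell (10.4% lower), with a median of 0.16, and 37 were not called. Libraries did not overlap for 41 members in MM134, 22 in MM330 and 46 in HCC1428, against 57.1, 37.4 and 40.7% of all genes. CENPE was the 1 member called lower in all 3 lines (all genes 4.29%), by -0.71 ± 0.07 in MM134, -0.32 ± 0.10 in MM330 and -0.78 ± 0.09 in HCC1428. PLK1, CENPA and HMMR rose in both lobular lines. In MM134 and MM330 the changes were 0.30 ± 0.05 and 0.47 ± 0.10 for PLK1, and 0.20 ± 0.07 and 0.33 ± 0.11 for CENPA. For HMMR they were 0.20 ± 0.05 and 0.32 ± 0.09. The share of all genes called higher in both lobular lines was not counted, so this overlap has no background. The other 6 that rose in MM330 were UBE2C (0.45 ± 0.11), AURKA (0.42 ± 0.10), BUB1B (0.35), CCNA2 (0.28), CCNB1 (0.28) and CDC20 (0.32). The lowest MM330 values beside CENPE were those of KIF14 (-0.18 ± 0.14) and SGO1 (-0.15 ± 0.17), not called. In MM134 the largest falls were those of KIF14 (-0.76 ± 0.06), SPC25 (-0.75 ± 0.07) and CENPE. BUB1, KIF20A, ECT2, AURKA, MYBL2, TACC3 and PRC1 were not called in MM134. In HCC1428 PTTG1 (-0.92 ± 0.11), KIF20A (-0.92 ± 0.07) and PRC1 (-0.85 ± 0.30) fell most, and BUB3 (-0.35 ± 0.04), ECT2 (-0.37 ± 0.05) and CDK1 (-0.42 ± 0.05) least. The MM330 count of 10 called members was unstable when single libraries of either group were left out. It was 3 without siMDC1_E2 replicate 1, 4 without siMDC1_E2 replicate 2, siNT_E2 replicate 1 or siNT_E2 replicate 3, and 5 without siMDC1_E2 replicate 3. Without siNT_E2 replicate 2 it stayed at 10. The MM330 count was larger without a filter on low counts and in a fit of the compared libraries only. The cause of these moves was not tested. With only the libraries of the lower pseudogene share, edgeR's quasi-likelihood test called 0 of 47 there (background 6.13% higher and 6.31% lower). At an unadjusted p below 0.05, 6 were higher and 1 lower, and no share of all genes is given at that threshold.

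The regulators followed their lines. FOXM1 had 221, 216 and 210.4 CPM with siER, 155, 156 and 159 CPM with siFOXA1 and 261, 258 and 258 CPM with siMDC1 in MM134, against a siNT_E2 mean of 297 ± 6.81 CPM. It had 243, 261 and 228 CPM with siER, 119, 64.6 and 82.7 CPM with siFOXA1 and 338, 320.2 and 317 CPM with siMDC1 in MM330, against a siNT_E2 mean of 269 ± 14.2 CPM. The levels were 103, 106 and 121 CPM with siER, 98.5, 104 and 95.3 CPM with siFOXA1 and 250.3, 236 and 242 CPM with siMDC1 in HCC1428, against a siNT_E2 mean of 352 ± 2.24 CPM. In MM134 and HCC1428 each knockdown group lay below siNT_E2 with no overlap. In MM330 the siER_E2 libraries overlapped with siNT_E2, those of siFOXA1_E2 lay below it and those of siMDC1_E2 above it. The siFOXA1 change of FOXM1 was -0.91 ± 0.03 (adjusted p = 3.9e-17) in MM134, -1.60 ± 0.14 (adjusted p = 9.8e-08) in MM330 and -1.86 ± 0.05 (adjusted p = 1.4e-15) in HCC1428. Its siMDC1 change was -0.21 ± 0.03 (adjusted p = 1.7e-06), 0.27 ± 0.14 (adjusted p = 0.2) and -0.55 ± 0.05 (adjusted p = 9.8e-08) in these lines, so the higher MM330 level was not called. MYBL2 had 192, 187 and 185 CPM with siER, 185, 191 and 199 CPM with siFOXA1 and 274, 283 and 286 CPM with siMDC1 in MM134, against a siNT_E2 mean of 289 ± 0.655 CPM. It had 56.7, 58.00 and 47.3 CPM with siER, 25.9, 9.74 and 12.1 CPM with siFOXA1 and 96.6, 94.7 and 91.8 CPM with siMDC1 in MM330, against a siNT_E2 mean of 84.6 ± 3.08 CPM. The levels were 151, 142 and 163 CPM with siER, 132, 136 and 133 CPM with siFOXA1 and 325, 322 and 325 CPM with siMDC1 in HCC1428, against a siNT_E2 mean of 557 ± 20.5 CPM. MYBL2 in MM134 siMDC1_E2 libraries lay just under siNT_E2, and the change was not called (-0.05 ± 0.03 (adjusted p = 0.12)). In MM330 siFOXA1_E2 the first library was above the other pair, and all 3 were below every other E2-treated library of the line.

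The next levels are those of CCNB1 and of the kinetochore and checkpoint leads. CCNB1 had 128, 131 and 124 CPM with siER, 101, 110.2 and 107 CPM with siFOXA1 and 122, 123 and 133 CPM with siMDC1 in MM134, against a siNT_E2 mean of 153 ± 3.35 CPM. It had 53.4, 61.9 and 59.6 CPM with siER, 40.7, 32.7 and 35.5 CPM with siFOXA1 and 62.3, 61.9 and 61.6 CPM with siMDC1 in MM330, against a siNT_E2 mean of 50.9 ± 5.56 CPM. The levels were 22.4, 24.4 and 27.6 CPM with siER, 19.7, 19.7 and 20.8 CPM with siFOXA1 and 34.2, 32.98 and 35.3 CPM with siMDC1 in HCC1428, against a siNT_E2 mean of 59.1 ± 3.96 CPM. In MM330 the CCNB1 libraries of siMDC1_E2 were above those of siNT_E2, and siER_E2 overlapped with them. NDC80 had 17.3, 16.7 and 15.4 CPM with siER, 13.8, 15.2 and 15.4 CPM with siFOXA1 and 15.8, 14.1 and 18.3 CPM with siMDC1 in MM134, against a siNT_E2 mean of 19.3 ± 1.16 CPM. It had 16.7, 16.8 and 15.01 CPM with siER, 15.1, 8.14 and 8.84 CPM with siFOXA1 and 21.7, 23.2 and 22.95 CPM with siMDC1 in MM330, against a siNT_E2 mean of 21.1 ± 3.22 CPM. The levels were 4.36, 4.81 and 6.94 CPM with siER, 3.73, 4.62 and 4.58 CPM with siFOXA1 and 11.2, 11.1 and 11.96 CPM with siMDC1 in HCC1428, against a siNT_E2 mean of 19.97 ± 1.89 CPM. NDC80 in MM134 overlapped between siMDC1_E2 and siNT_E2, and the change was -0.27 ± 0.08 (adjusted p = 0.0055). BUB1B had 78.8, 80.4 and 73.5 CPM with siER, 78.2, 83.5 and 82.4 CPM with siFOXA1 and 91.4, 96.2 and 95.4 CPM with siMDC1 in MM134, against a siNT_E2 mean of 101 ± 4.27 CPM. It had 33.03, 32.97 and 30.2 CPM with siER, 18.1, 14.3 and 14.5 CPM with siFOXA1 and 49.9, 45.3 and 49.5 CPM with siMDC1 in MM330, against a siNT_E2 mean of 37.7 ± 6.16 CPM. The levels were 12.3, 12.9 and 12.3 CPM with siER, 10.6, 10.2 and 11.3 CPM with siFOXA1 and 25.8, 26.4 and 25.95 CPM with siMDC1 in HCC1428, against a siNT_E2 mean of 40.5 ± 0.474 CPM. BUB1B rose with siMDC1 in MM330 (0.35 ± 0.10 (adjusted p = 0.018)) and fell with it in MM134 (-0.11 ± 0.04 (adjusted p = 0.015)) and HCC1428 (-0.65 ± 0.06 (adjusted p = 1.2e-07)). The difference between MM330 and MM134 was not tested. BUB3 had 163, 174 and 166 CPM with siER, 133, 142 and 139 CPM with siFOXA1 and 179, 178 and 188 CPM with siMDC1 in MM134, against a siNT_E2 mean of 191 ± 5.79 CPM. It had 96.1, 94.6 and 95.9 CPM with siER, 72.04, 64.01 and 66.8 CPM with siFOXA1 and 107, 105 and 109 CPM with siMDC1 in MM330, against a siNT_E2 mean of 101 ± 5.12 CPM. The levels were 74.3, 75.8 and 72.8 CPM with siER, 68.05, 65.9 and 66.9 CPM with siFOXA1 and 87.5, 91.8 and 90.3 CPM with siMDC1 in HCC1428, against a siNT_E2 mean of 114 ± 7.97 CPM. BUB3 stayed within a narrow span: its lowest group mean was 66.9 CPM in HCC1428 siFOXA1_E2 and its highest 195 CPM in MM134 siNT, a ratio of 2.91.

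The leads of the spindle, of chromosome structure and of exit had their lowest E2-treated means with siFOXA1 in MM330 and HCC1428. TPX2 had 211, 196 and 190.4 CPM with siER, 197, 206 and 213 CPM with siFOXA1 and 251, 257 and 260.2 CPM with siMDC1 in MM134, against a siNT_E2 mean of 277 ± 4.45 CPM. It had 87.3, 99.5 and 88.7 CPM with siER, 70.1, 45.1 and 50.2 CPM with siFOXA1 and 127, 126 and 126 CPM with siMDC1 in MM330, against a siNT_E2 mean of 109 ± 8.38 CPM. The levels were 61.1, 59.1 and 65.7 CPM with siER, 46.1, 43.9 and 43.1 CPM with siFOXA1 and 98.8, 98.6 and 99.3 CPM with siMDC1 in HCC1428, against a siNT_E2 mean of 139.7 ± 3.15 CPM. TPX2 with siFOXA1 in HCC1428 stood near the siNT level of that line. TOP2A had 676, 676 and 614 CPM with siER, 544, 568 and 558 CPM with siFOXA1 and 709, 729 and 724 CPM with siMDC1 in MM134, against a siNT_E2 mean of 823 ± 11.1 CPM. It had 275, 289 and 270.5 CPM with siER, 227, 142 and 157 CPM with siFOXA1 and 398, 383 and 414 CPM with siMDC1 in MM330, against a siNT_E2 mean of 314 ± 21.9 CPM. The levels were 58.9, 60.5 and 71.9 CPM with siER, 55.5, 57.5 and 55.9 CPM with siFOXA1 and 128, 123 and 133 CPM with siMDC1 in HCC1428, against a siNT_E2 mean of 219 ± 19.03 CPM. The MM330 siMDC1_E2 libraries of TOP2A lay above all siNT_E2 libraries, and the change was 0.34 ± 0.12 (adjusted p = 0.061), not called. CDC20 had 92.3, 87.5 and 85.6 CPM with siER, 79.9, 88.2 and 85.9 CPM with siFOXA1 and 109.6, 113 and 121 CPM with siMDC1 in MM134, against a siNT_E2 mean of 132 ± 4.24 CPM. It had 58.8, 69.03 and 58.99 CPM with siER, 36.4, 28.8 and 31.3 CPM with siFOXA1 and 78.1, 79.4 and 72.3 CPM with siMDC1 in MM330, against a siNT_E2 mean of 61.2 ± 7.88 CPM. The levels were 31.3, 31.8 and 38.3 CPM with siER, 29.1, 27.4 and 28.4 CPM with siFOXA1 and 58.4, 62.8 and 63.99 CPM with siMDC1 in HCC1428, against a siNT_E2 mean of 101 ± 1.57 CPM. CDC20 in MM330 overlapped between siER_E2 and siNT_E2, and siMDC1_E2 lay above (0.32 ± 0.09 (adjusted p = 0.023)). Over the 15 groups, MYBL2 and TOP2A had the widest spans of the 47 members, with ratios of 35.1 and 28.9 between the highest and the lowest group mean.

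**Figure D3:**
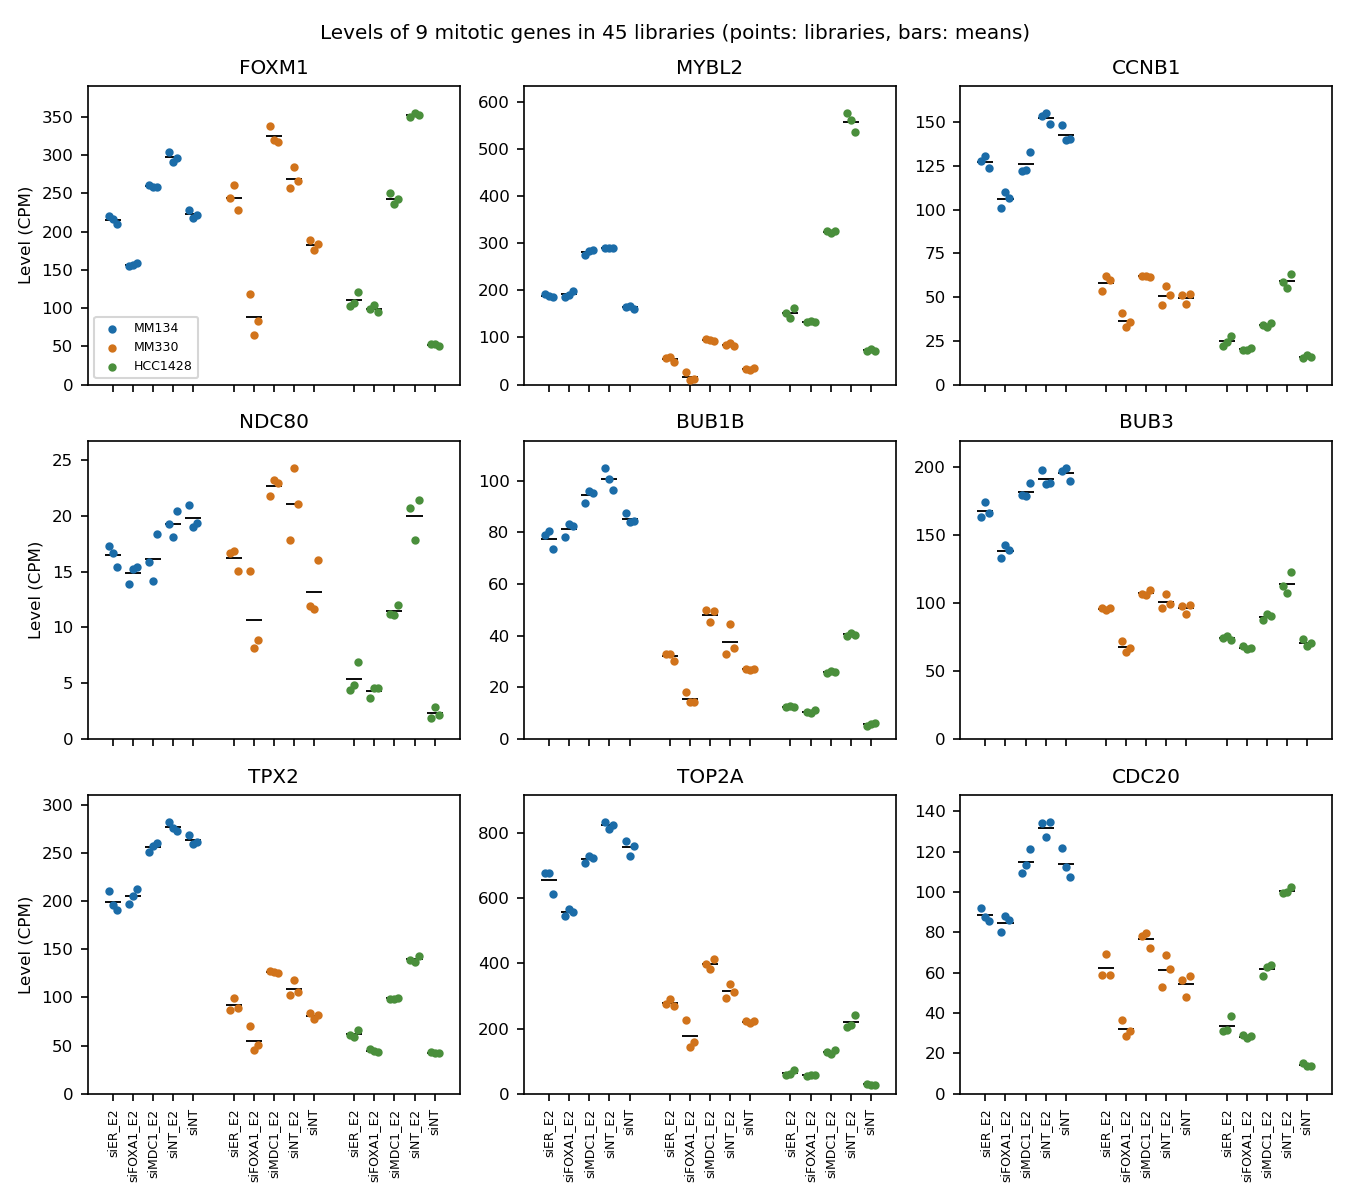
Levels of 9 mitotic genes in CPM (linear axes from 0, a scale per gene) in all 45 libraries, by group within each line. Points are libraries and bars are group means. The HCC1428 siNT_E2 libraries are the highest of their line for each gene, whereas in MM330 the siMDC1_E2 mean is the highest of its line for all 9.

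The neighbouring lists gave these counts against siNT_E2. Of the 77 other mitotic genes, siER lowered 55 in MM134, 38 in MM330 and 73 in HCC1428, and raised 3, 2 and 1, where 27.9, 17.4 and 28.7% of all genes were lower and 29.3, 15.1 and 22.5% higher. With siFOXA1, 67, 71 and 73 fell in these lines and 1 rose in each, against 28.5, 24.6 and 29.5% lower and 27.9, 24.4 and 24.1% higher over all genes. With siMDC1, 46 fell and 5 rose in MM134, 1 fell and 10 rose in MM330, and 66 fell and 1 rose in HCC1428. The shares of all genes there were 25, 10.4 and 15.9% lower and 25.4, 10.4 and 13.2% higher, so the rises in MM330 were near the background. CEP55, a scaffold of the last cut between daughter cells, was the lowest of the 77 with siMDC1 in all 3 lines, at -1.70 ± 0.04 in MM134, -0.50 ± 0.08 in MM330 and -1.07 ± 0.07 in HCC1428. The second lowest were KIF4A (-0.53), KIF20B (-0.16, not called) and SPC24 (-0.78). WEE1, the kinase that blocks CDK1 before mitosis, was the highest with siMDC1 in MM134 (0.64 ± 0.03) and MM330 (0.76 ± 0.06), followed by SKA2 (0.38) and OIP5 (0.55). In HCC1428 these were NUMA1 (0.12) and SKA2 (0.06, not called). With siFOXA1 the lowest were CENPH (-1.34) and ZWILCH (-1.21) in MM134, CENPH (-2.51) and ZWILCH (-2.27) in MM330, and CENPU (-2.18) and SPC24 (-2.10) in HCC1428. The highest were WEE1 (0.31) and OIP5 (0.09, not called) in MM134, CENPT (0.10, not called) and NUMA1 (0.09) in MM330, and NUMA1 (0.13) and CENPC (0.07, not called) in HCC1428. With siER the lowest were ANLN (-0.96) and BIRC5 (-0.86) in MM134, DEPDC1 (-0.97) and ZWILCH (-0.80) in MM330, and SPC24 (-2.00) and MELK (-1.97) in HCC1428. The highest were NUMA1 (0.45) and SKA2 (0.36) in MM134, WEE1 (0.44) and MAD1L1 (0.36, not called) in MM330, and NUMA1 (0.48) and CENPC (-0.19, not called) in HCC1428.

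Of the 27 DNA replication genes, siER lowered 27 in MM134, 13 in MM330 and 27 in HCC1428, with medians of -0.46, -0.37 and -1.61. With siFOXA1, 26, 27 and 27 fell and 1 rose in MM134, with medians of -0.41, -1.85 and -1.77. In MM330 this median was below that of the mitotic genes, and in MM134 and HCC1428 above it. With siMDC1, 19 fell and 2 rose in MM134, 8 rose in MM330 and 27 fell in HCC1428. The shares over all genes are those given for the other mitotic genes. The medians of the APC/C subunits were nearer 0 than those of the mitotic genes in each knockdown, between -0.25 (siER in HCC1428) and 0.05 (siMDC1 and siFOXA1 in MM330).

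Whether the knockdown groups with E2 stood above or below the line without hormone was asked against siNT. In HCC1428 they stayed above it. With siER, 45 members were higher than in siNT (background 11.7% higher; median 0.96), with siFOXA1, 40 (25.1%; median 0.70), and with siMDC1, 47 (26.2%; median 1.98). SKA1 was the highest in all 3, by 1.63 ± 0.11, 1.37 ± 0.11 and 2.82 ± 0.11, ahead of NEK2 (1.49, 1.37 and 2.45). BUB3 (0.06 ± 0.05) and PRC1 (0.94 ± 0.34) were not called with siER. With siFOXA1, BUB3, TPX2, CENPF, INCENP, CENPE, PRC1 and HMMR were not called, the TPX2 value being 0.03 ± 0.04. These siNT libraries also had mitochondrial shares of 17.05 ± 1.45%, beside 16.5 ± 0.640% with siER, 17.3 ± 0.468% with siFOXA1 and 15.4 ± 0.714% with siMDC1.

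In MM134 most members were at or below their siNT level in the knockdown groups. With siER, 35 members were lower (background 15.2% lower) and 1 higher (17.2% higher), with a median of -0.21. With siFOXA1, 42 were lower (27.9%) and 1 higher (28.9%), with a median of -0.37. With siMDC1, 21 were lower (23.2%) and 12 higher (26.0%), with a median of -0.08. The 12 higher were near that share of all genes. MYBL2 was the 1 member higher with siER (0.21 ± 0.03) and with siFOXA1 (0.22 ± 0.03), and the highest with siMDC1 (0.75 ± 0.03). With siMDC1, PLK1 (0.30), CENPN (0.24), FOXM1 (0.20), TACC3 (0.20), CENPA, KIF18B, MAD2L1, BUB1B, AURKA, UBE2C and ESPL1 were the other 11. CENPE (-0.93 ± 0.07) and KIF14 (-0.80 ± 0.06) were the lowest. With siFOXA1, CCNA2 was the lowest (-1.27 ± 0.05), and NUSAP1, BUB1B, PLK1 and PRC1 were not called. With siER it was MKI67 (-0.66 ± 0.05). Of the 27 DNA replication genes, 9 were higher and 3 lower than in siNT with siER, 13 and 7 with siFOXA1, and 23 and 1 with siMDC1, beside the same shares of all genes. These counts were not tested against each other.

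MM330 split by siRNA. With siMDC1, 43 members were above siNT (background 17.9% higher; median 0.70), led by MYBL2 (1.53 ± 0.20), CENPN (1.12 ± 0.13) and SKA3 (1.03 ± 0.11). CENPE, KIF20A, KIF14 and PRC1 were not called. With siER, 17 were above siNT (8.66%) and 1 below (11.5% lower), with a median of 0.26. MYBL2 (0.73 ± 0.20), NUSAP1 (0.59 ± 0.13) and SKA3 (0.56 ± 0.11) were the highest, and MKI67 fell below siNT (-0.60 ± 0.14). This count of 18 was 9 without siER_E2 replicate 2 or siNT replicate 1, and 10 without siNT replicate 2. It was 7 with only the libraries of the lower pseudogene share, all higher (background 4.23% higher). It was 32 in a fit of the 6 compared libraries and 33 without a filter on low counts. Apart from the fit of the lower pseudogene share, no share of all genes is given for these fits. With siFOXA1, 41 were below siNT (23.8% lower; median -0.59), with CCNA2 (-1.17 ± 0.11), SKA3 (-1.14 ± 0.12) and MYBL2 (-1.06 ± 0.23) the lowest. NEK2, TOP2A, NDC80, CENPF, AURKA and PLK1 were not called.

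**Figure D4:**
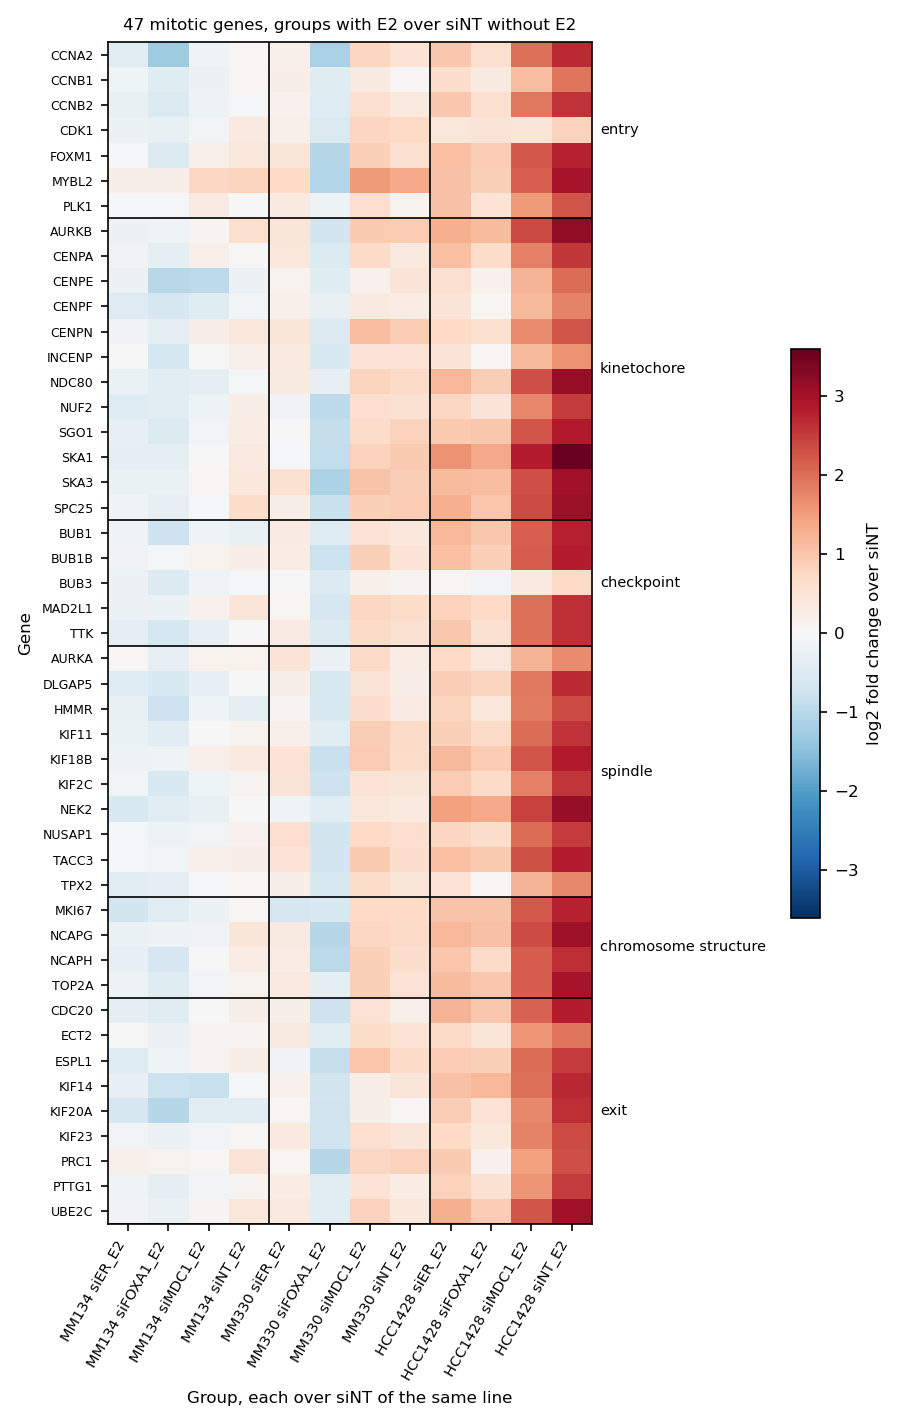
Log2 fold change of the 47 mitotic genes (rows, grouped by step) in each group with E2 over siNT of the same line (columns). Red is above siNT and blue below. The HCC1428 columns are red for nearly all genes, the MM330 siFOXA1_E2 column is blue, with 41 genes called lower, and MYBL2 is red in all 4 MM134 columns.

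The knockdown groups were also compared with each other. With siFOXA1 the members were lower than with siMDC1 in every line: 40 in MM134 (background 25.3% lower), 47 in MM330 (24.3%) and 46 in HCC1428 (25.6%), with medians of -0.31, -1.25 and -1.22. CCNA2 (-1.11 ± 0.05) in MM134, MYBL2 (-2.59 ± 0.22) in MM330 and NCAPH (-1.48 ± 0.11) in HCC1428 were the lowest, and CDK1 (0.05 ± 0.05) was the 1 member not called in HCC1428. With siMDC1 they were higher than with siER: 30 in MM134 (24.1% higher) beside 2 lower (21.5% lower), 33 in MM330 (16.9%) and 45 in HCC1428 (23.7%). The medians were 0.19, 0.46 and 1.02. MKI67 (1.31 ± 0.15) and ESPL1 (1.11 ± 0.11) led in MM330, and ESPL1 (0.55 ± 0.03) and MYBL2 (0.54 ± 0.03) in MM134, where CENPE (-0.72 ± 0.07) and KIF14 (-0.50 ± 0.06) were the lower pair. CDK1 and PRC1 were not called in HCC1428. With siFOXA1 against siER, 25 were lower (25.4% lower) and 3 higher (25.8% higher) in MM134, 45 lower in MM330 (22.9%) and 29 lower in HCC1428 (21.6%). The medians were -0.14, -0.79 and -0.26. ESPL1 (0.30 ± 0.03), MKI67 (0.28 ± 0.05) and NEK2 (0.15 ± 0.06) were the 3 higher in MM134, and NEK2 (-0.23 ± 0.16) and MKI67 (0.06 ± 0.15) were not called in MM330. CCNA2 (-0.87) in MM134, MYBL2 (-1.78) in MM330 and, among those called in HCC1428, PLK1 (-0.56) were the lowest. The HCC1428 count of 29 was 19 without siER_E2 replicate 3 and 11 with only the libraries of the lower pseudogene share (background 15.9% lower), where siER_E2 kept 1 library.

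Differences between the lines in these changes were tested as interaction terms over all 45 libraries, each lobular line minus HCC1428. The E2 change was smaller for 47 members in MM134 (background 14.3% lower; median difference -2.46) and for 46 in MM330 (16.5%; -2.14). CDK1 was the exception in MM330 (-0.12 ± 0.12, not called) and had the smallest difference in MM134 (-0.47 ± 0.11). The siER change was less negative for 45 members in MM134 (12.4% higher; 1.21) and 45 in MM330 (13.0%; 1.38). CDK1 and PRC1 were not called in either. With siFOXA1 the difference was positive for 46 members in MM134 (16.8%) and negative for CDK1 (13.7% lower), with a median of 1.28. In MM330 it was positive for 33 (11.8%) and negative for CDK1 (10.4% lower), with a median of 0.61. CDK1 fell more with siFOXA1 in both lobular lines than in HCC1428, by -0.30 ± 0.11 and -0.92 ± 0.12. With siMDC1 the difference was positive for 32 members in MM134 (10.9%; median 0.41) and 45 in MM330 (7.48%; median 0.79), where SGO1 and PRC1 were not called. These 4 comparisons per lobular line share the same HCC1428 libraries.

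The lines started from different levels without hormone. In siNT, 46 members were higher in MM134 than in HCC1428 (background 35.7% higher) and CDK1 was lower (39.9% lower), with a median log2 difference of 3.10. TOP2A (4.73 ± 0.10), KIF14 (4.49 ± 0.14) and NEK2 (4.37 ± 0.14) differed most, and CDK1 was -0.18 ± 0.08. In MM330, 44 were higher than in HCC1428 (35.2%) and 2 lower (37.7% lower), with a median of 1.89. HMMR (4.08 ± 0.12) and PTTG1 (3.76 ± 0.13) led, CDK1 (-1.97 ± 0.09) and MYBL2 (-1.14 ± 0.12) were lower, and INCENP (-0.07 ± 0.06) was not called. Between the lobular lines, 42 were higher in MM134 than in MM330 (35.5%) and AURKA was lower (-0.31 ± 0.08; 36.9% lower), with a median of 1.15. SKA1 (2.63 ± 0.10), NCAPG (2.47 ± 0.08) and MYBL2 (2.32 ± 0.12) differed most, and PRC1, HMMR, ECT2 and PTTG1 were not called. After E2, the summed level of HCC1428 (4692 ± 103 CPM) was above that of MM330 (3690.2 ± 299 CPM), although without hormone it was the lowest of the 3 lines.

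**Figure D5:**
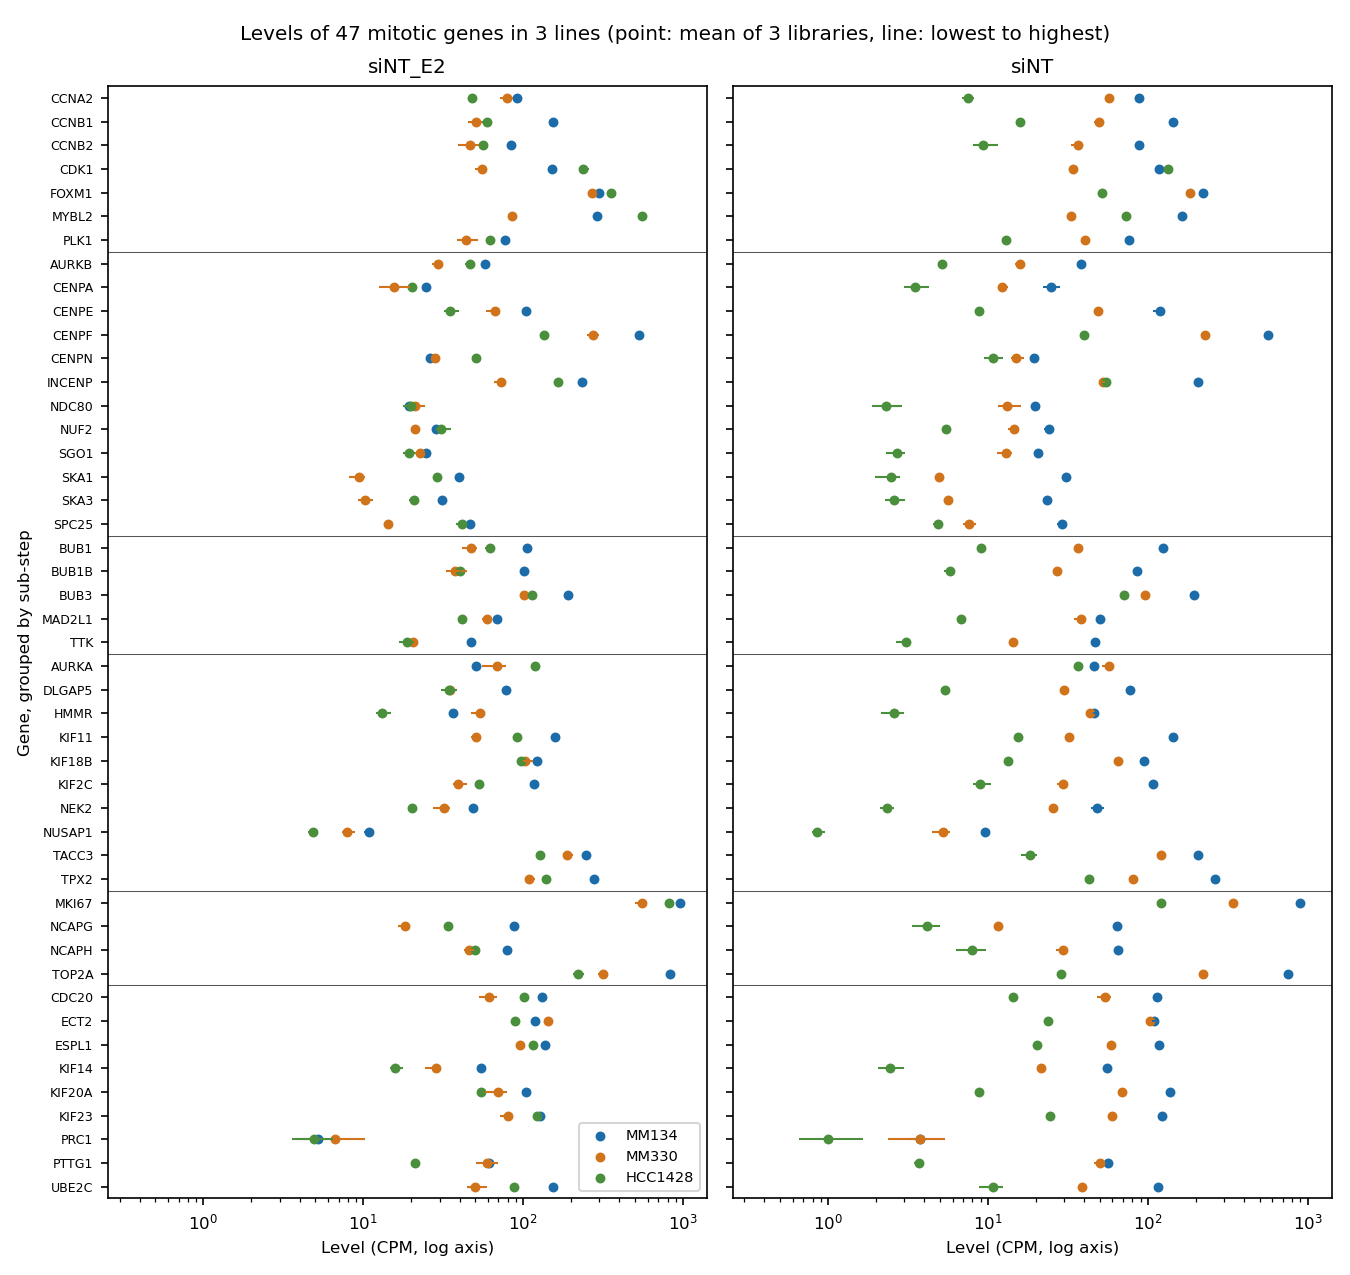
Level of each mitotic gene in CPM on a log axis, in siNT_E2 (left) and siNT (right) libraries of the 3 lines. Points are means of 3 libraries and lines run from the lowest to the highest library. Without hormone the HCC1428 points lie to the left of the others for most genes, CDK1, INCENP and MYBL2 apart, and with E2 the 3 lines lie closer together.

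Per kilobase of exon, the order of the members differed between lines. In siNT_E2 libraries, MYBL2 stood first in HCC1428 at 201 ± 7.39 CPM per kb (SD, n = 3), and FOXM1 next at 71.9 ± 0.458 CPM per kb. In MM330, FOXM1 came first at 54.9 ± 2.89 CPM per kb and TOP2A next at 48.8 ± 3.40 CPM per kb. In MM134 the first 3 were TOP2A at 128 ± 1.73, UBE2C at 119.5 ± 3.22 and MYBL2 at 104 ± 0.236 CPM per kb. In siNT libraries of HCC1428, CDK1 stood first at 33.9 ± 1.45 CPM per kb and MYBL2 next at 26.2 ± 0.954 CPM per kb. PRC1 and NUSAP1 were the lowest pair in the siNT_E2 groups of all 3 lines. Exon lengths are those of GENCODE release 29, and the setting for overlapping genes was not given in the sources used here, so the levels of members that overlap another gene are uncertain. On the same strand these are BUB1B (with BUB1B-PAK6), CENPA (SLC35F6), NUSAP1 and PRC1. On the opposite strand they include FOXM1 (RHNO1 and ITFG2), CCNA2 (EXOSC9), CENPN (CMC2), NUF2 (RGS5), SPC25 (NOSTRIN), NCAPG (LCORL) and KIF20A (CDC23 and BRD8).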

How the data were processed

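Polyadenylated RNA was sequenced as paired reads of 150 bases. STAR 2.6.0a, limma and the build GRCh38 are named in the submitters' processing notes, while no counting tool, annotation or strand setting is given in the sources used here. The authors deposited raw counts per gene symbol (57353 symbols, 45 libraries), and all columns were matched to samples by their labels. Counts were analysed with edgeR 4.0.16 in R 4.3.3: filterByExpr by group, TMM scaling, and the quasi-likelihood test (glmQLFit, glmQLFTest). P-values were adjusted by Benjamini-Hochberg over all genes of a comparison, and genes were called below 0.05. Each line's 15 libraries entered 1 fit, for 30 comparisons over the lines (17744, 17834 and 18286 genes in MM134, MM330 and HCC1428), and all 45 for 8 differences between lines and 3 siNT comparisons (21447 genes). Alternatives used RLE scaling, no filter, DESeq2 1.42.0, limma-voom 3.58.1, the compared libraries only, a replicate block, left-out libraries, and 2 handlings of the pseudogene share chosen after seeing the data. Positions come from GENCODE 29.

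The members and lists were chosen with earlier results of these data known. Named were 9 lead members, the 3 highest and 3 lowest of a main comparison, called members against the main direction, uncalled ones where 6 or fewer, 2 highest and 2 lowest other mitotic genes, and the targets of the siRNAs. Other members were named to account for all 47. The labels give no culture of origin for the 3 replicates of a group, so p-values measure only the spread between these libraries, and reads carried no molecular identifiers. No pair of libraries of the same group agreed within sampling noise, and pairs from different groups were not compared in this way. On simulated counts within a line, 39.4% of genes changed by 0.5 on the log2 scale and 83.8% of those changed by 1 were called. For differences between lines these shares were 7.53% and 62.1%. Both simulations changed only the MM330 siER_E2 libraries and gave every gene the same assumed spread. The shares are therefore not the power of the comparisons reported here.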

Additional observations from a re-analysis of the deposited data

Results flagged for a closer look

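The changes of the mitotic genes differed between lines by a test of the difference itself, an interaction term in edgeR's quasi-likelihood test over 45 libraries, given as the log2 change in the lobular line minus that in HCC1428. For E2, 47 members differed in MM134 (26.5% of all genes, both directions counted) and 46 in MM330 (28.3%). For siER the counts were 45 (24.5%) and 45 (25.3%), for siFOXA1 47 (30.5%) and 34 (22.2%), and for siMDC1 32 (18.6%) and 45 (13.8%).

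In MM134, the E2 differences were largest for SKA1 (-3.19), NDC80 (-3.15) and NEK2 (-3.11) and smallest for INCENP (-1.40), BUB3 (-0.72) and CDK1 (-0.47). With siER they were 1.66 for NDC80, 1.63 for BUB1, 1.58 for HMMR, 0.695 for TPX2 and 0.43 for BUB3, and CDK1 was not called (-0.18). With siFOXA1 they were 1.84 for NDC80, 1.77 for PRC1, 1.67 for PLK1, 0.67 for INCENP, -0.30 for CDK1 and 0.30 for BUB3. With siMDC1 they were 1.03 for PLK1, 0.94 for KIF20A and 0.94 for CENPA, and CDK1 (-0.04), KIF14 (-0.02) and SPC25 (0.02) were not called.

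In MM330, the E2 differences were -2.78 for NEK2, -2.645 for UBE2C, -2.64 for CDC20, -1.13 for INCENP and -0.62 for BUB3, and CDK1 was not called (-0.12). With siER they were 1.74 for DLGAP5, 1.715 for KIF20A, 1.70 for NUSAP1, 0.54 for BUB3 and 0.42 for MKI67, and CDK1 was again not called (-0.12). With siFOXA1 they were 1.45 for PLK1, 1.315 for KIF20A and 1.305 for UBE2C, and SGO1 (0.19), SKA3 (-0.13) and ESPL1 (0.10) were not called. With siMDC1 they were 1.22 for UBE2C, 1.20 for PLK1, 1.15 for PTTG1, 0.44 for BUB3 and 0.43 for INCENP, and SGO1 was not called (0.43).

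Outside the mitotic genes, the E2 change of CDKN1A, the gene of the inhibitor p21, differed by the same test, by -2.95 between MM134 and HCC1428 and by -1.584 between MM330 and HCC1428. It was called lower with E2 in MM134 and higher in the other lines.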

How the results depend on the processing

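Of 41 counts of called members, all 41 stayed within 1.5 times under RLE scaling, DESeq2, limma-voom and the pseudogene share class as a term. Single genes were checked only for the 9 lead members and the 3 siRNA targets. None of their values changed sign past the threshold in any alternative. With 1 library left out, 30 of their calls were lost, 5 gained and 829 unchanged. Without a filter on low counts 1 was lost and 10 gained, and likewise in fits of the compared libraries only. Without a filter on low counts, MM330 siER_E2 against siNT_E2 had 33 called members in place of 17, MM330 siMDC1_E2 against siNT_E2 24 in place of 10, and MM330 siER_E2 against siNT 33 in place of 18. In fits of the compared libraries only, the MM330 counts were 21 for siMDC1_E2 against siNT_E2 and 32 for siER_E2 against siNT. Shares of all genes are not given for fits without a filter, of the compared libraries only or with 1 library left out. The counts from these fits therefore have no background here. With only the libraries of the lower pseudogene share they were 0 and 7, and HCC1428 siFOXA1_E2 against siER_E2 had 11 in place of 29. Fewer libraries entered these fits, and in HCC1428 siER_E2 and siNT kept 1 library each, assumed to vary like the other groups. Leaving out 1 library gave 3 to 10 members for MM330 siMDC1_E2 against siNT_E2, 9 to 14 for MM330 siER_E2 against siNT, and 19 to 30 for HCC1428 siFOXA1_E2 against siER_E2, with 285 counts of this kind within 1.5 times and 9 not. Where 1 of 45 libraries was left out, the dispersion trend of all 45 was kept. The cause of these moves was not tested.

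Replicate numbers showed no general pairing of the libraries. For each gene the group mean was subtracted, and these deviations were correlated between libraries of different groups. Median correlations of the deviations for same-numbered libraries were 0.0026 in MM134, -0.0026 in MM330 and 0.0024 in HCC1428. For libraries of other numbers they were -0.0037, 0.0064 and -0.0025. The deviations of 1, 5 and 5 of 15 libraries correlated best with a library of their own number. Single same-numbered pairs reached 0.235, 0.673 and 0.504, and 1 of 30, 8 of 30 and 4 of 26 pairs were over 0.1. With the number as a replicate block, 38 of 38 counts stayed within 1.5 times and none of 144 calls of single genes changed; the 3 siNT comparisons between lines were not fitted with a block. Under RLE scaling the median of all genes shifted by at most 0.037. Counts were low for NUSAP1 and PRC1, and for NDC80, SKA1 and NEK2 in HCC1428 siNT. The cause of the low counts was not tested.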

Other observations

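The genes upstream of the mitotic programme, a list of 19 that holds the E2F factors, the pocket proteins and the subunits of the DREAM and MuvB complexes, were measured in the same libraries. With E2, 10 of the 19 were higher and 4 lower in MM134, 13 higher and 3 lower in MM330, and 14 higher and 3 lower in HCC1428 (edgeR's quasi-likelihood test). Over all genes tested, 27.2% were higher and 27.2% lower in MM134, 13.7% and 12.6% in MM330, and 29.1% and 25.7% in HCC1428. In HCC1428 the activator E2F1 was higher by 2.88 on the log2 scale, E2F2 by 3.23, and the repressors E2F7 by 3.18 and E2F8 by 2.63. RBL2, which encodes the pocket protein p130 of the DREAM complex, was lower with E2 in all 3 lines, as were 6.56% of the genes tested in all 3. Its changes were -0.68 in MM134, -0.18 in MM330 and -0.42 in HCC1428, where the lowest value of the list was -1.12. With siER, the numbers of listed genes higher and lower were 5 and 11 in MM134, 3 and 6 in MM330, and 3 and 15 in HCC1428, where 29.3 and 27.9%, 15.1 and 17.4%, and 22.5 and 28.7% of all genes were. With siFOXA1 they were 4 and 10, 3 and 14, and 3 and 15 in the same order of lines, beside 27.9 and 28.5%, 24.4 and 24.6%, and 24.1 and 29.5% of all genes. With siMDC1 they were 4 and 8, 2 and 2, and 1 and 13, beside 25.4 and 25.0%, 10.4 and 10.4%, and 13.2 and 15.9%. In MM330 the siMDC1 counts were near the shares of all genes, and in MM134 the E2 falls were below them.

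CDKN1A, which encodes the cyclin-dependent kinase inhibitor p21, was the listed gene whose E2 call differed in direction between lines, and it was singled out after its values were seen. In MM134 it measured 55.1, 55.0 and 57.6 CPM with siNT_E2, against 110, 108 and 111 CPM with siNT. In MM330 it measured 41.4, 45.5 and 44.95 CPM with siNT_E2, against 33.9, 30.6 and 36.1 CPM with siNT. In HCC1428 it measured 44.5, 43.9 and 43.9 CPM with siNT_E2, against 11.96, 11.75 and 9.87 CPM with siNT. The siNT_E2 and siNT libraries did not overlap in any of the 3 lines, with siNT_E2 below siNT in MM134 and above it in MM330 and HCC1428. On the log2 scale the E2 changes were -0.98 in MM134, 0.41 in MM330 and 1.99 in HCC1428. In MM134, siER, siFOXA1 and siMDC1 each raised CDKN1A over siNT_E2, by 1.38, 1.29 and 1.51. In HCC1428, siER, siFOXA1 and siMDC1 gave -1.44, -1.08 and -0.73, each called lower. In MM330 siFOXA1 gave 0.37 and was called higher, while siER (-0.19) and siMDC1 (0.13) were not called. The 3 knockdown comparisons of a line share their siNT_E2 libraries.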
